A study of Mus musculus with 32 samples.

Results

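The respiratory chain is described here as the 96 genes that code for subunits of complexes I to V and that were measured in bone marrow-derived macrophages (BMDMs) after induced loss of *Trex1*. Members were chosen by gene symbol: protein-coding genes of the *Ndufa*, *Ndufb*, *Ndufc*, *Ndufs*, *Ndufv*, *Sdh*, *Uqcr*, *Cox4i* to *Cox8*, *Atp5*, *mt-Nd*, *mt-Co*, *mt-Atp* and *mt-Cytb* families with at least 10 counts in at least 2 libraries. Of 54281 gene identifiers in the count table, 103 had such a symbol and 96 passed this minimum. Nuclear DNA holds 83 of them (38 of complex I, 4 of complex II, 8 of complex III, 15 of complex IV and 18 of complex V) and mitochondrial DNA holds 13 (7, 0, 1, 3 and 2). Complexes were assigned by the start of the symbol, so *Ndufa4* is counted under complex I although its product belongs to complex IV. After the filter on low counts, 95 members were tested, 82 nuclear and 13 mitochondrial, and *Cox4i2* was not.

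Complexes I to IV pass electrons from NADH and succinate to oxygen. Complexes I, III and IV pump protons across the inner mitochondrial membrane as they do so, complex II does not, and complex V uses the gradient to make ATP. Complex II is built from nuclear subunits alone, whereas the other complexes join nuclear subunits, which are imported, to a core made inside the organelle. The mitochondrial mRNAs are cut from long polycistronic transcripts of both strands of a small circular genome, so their levels depend on a polymerase, processing enzymes and decay factors that are themselves nuclear products. Macrophages are known to change their use of respiration when they are activated.

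RNA was sequenced from BMDMs of *Trex1* FL/FL R26 CreERT2 mice and of *Trex1* WT/FL R26 CreERT2 controls, which carry 1 floxed and 1 wild-type allele. Cells of both genotypes were exposed to 4-hydroxytamoxifen (4-OHT, 2 µg/ml for 22 h), which activates the Cre recombinase, or were left untreated, and were harvested on days 1, 2, 3 and 4 after the exposure. The 16 groups had 2 libraries each. CreERT2 sits in the ubiquitously active *Rosa26* locus and was present in all groups, so treated WT/FL cells carry active Cre and can lose 1 allele. The age and number of the mice and the animal behind each library are not given in the labels, so p-values measure the spread between these libraries, which may be technical. Libraries are called first and second in the order of their labels.

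The depth was 35120505 to 63760884 counts per library. *Trex1* was undetected (0 CPM, that is counts scaled to the TMM-adjusted library total) in both treated FL/FL libraries on days 1, 3 and 4 and at 0.347 and 0.25 CPM on day 2, against 12.2 to 79.4 CPM in treated WT/FL libraries and 28.6 to 144 CPM in untreated libraries of both genotypes. Macrophage markers summed to 15600 to 50100 CPM in all libraries. Markers of lymphocytes, mast cells and basophils, and erythroid cells summed to at most 0.173, 0.198 and 0.0473 CPM. The summed level of dendritic cell markers was 0.751 to 2.67 CPM, of stromal markers 0.0871 to 2.27 CPM and of neutrophil and progenitor markers 6.34 to 36.2 CPM.

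The 13 mitochondrial genes lie close together, and some of them overlap. The following stretches of the mouse mitochondrial genome (GRCm39, plus strand) are shown because reads from them cannot be assigned to 1 gene with certainty. Capitals mark the bases that belong to both genes of a pair: 43 bases of *mt-Atp8* and *mt-Atp6* at chrM:7915-7981, 7 bases of *mt-Nd4l* and *mt-Nd4* at chrM:10143-10197, and 14 bases of *mt-Nd5* and *mt-Nd6*, which is read from the opposite strand, at chrM:13528-13589.
mt-Atp8 and mt-Atp6: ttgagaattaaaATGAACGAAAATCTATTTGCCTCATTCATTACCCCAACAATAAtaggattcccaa
mt-Nd4l and mt-Nd4: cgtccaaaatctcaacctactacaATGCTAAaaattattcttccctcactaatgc
mt-Nd5 and mt-Nd6: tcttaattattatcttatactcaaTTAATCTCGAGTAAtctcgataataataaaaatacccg

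Mitochondrial genes also have copies in nuclear DNA, and Salmon could have split their reads. The annotated pseudogene *Gm13340* on chromosome 2 matched *mt-Co1* over 1545 aligned bases with 37 mismatches, that is 97.6% identity. The same 60 bases of both are shown as an example (GRCm39, chrM:5787-5846, plus strand, and chr2:22479141-22479200, minus strand), with the 4 bases that differ in capitals.
mt-Co1: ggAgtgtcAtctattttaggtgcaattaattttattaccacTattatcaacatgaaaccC
Gm13340: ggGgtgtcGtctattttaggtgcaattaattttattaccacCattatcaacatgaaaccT
The share of the 31-base words of a transcript that also occur in transcripts of other genes was 0.0% for *mt-Nd1*, 6.55% for *mt-Cytb*, 7.36% for *mt-Nd6*, 7.47% for *mt-Atp8*, 13.5% for *mt-Nd2* and 16.8% for *mt-Nd5*. It was 62.8% for *mt-Nd4*, 63.9% for *mt-Co1* and at least 98.1% for *mt-Nd3*, *mt-Nd4l*, *mt-Atp6*, *mt-Co3* and *mt-Co2*. Counts listed under nuclear copies that hold at least 60% of the words of a mitochondrial gene amounted to 3.47% to 11.5% of the mitochondrial members' counts per library. No copy of *mt-Co1* reached that limit, as *Gm13340* holds 45.2% and *Gm29216* 29.6% of its words. The counts of mitochondrial calls for genotype after 4-OHT and for the interaction on days 3 and 4 are given below also with the counts of the copies past this limit added. The values of single genes are without them unless stated. For some single genes the copies weighed more than this pooled share. *Gm28437*, the copy of *mt-Co3*, had 13704 to 91974 counts per library, and *mt-Co3* itself at most 136792. *Gm10222*, the copy of *mt-Nd4l*, had 0 to 7137 counts, and *mt-Nd4l* at most 8251. Values of the genes with large shared parts are uncertain to the extent of their own copies.

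Levels per kilobase of transcript are counts divided by transcript length, then scaled to a common total in each library without TMM factors. On this scale most mitochondrial mRNAs stood above all nuclear ones, while *mt-Nd3*, *mt-Nd4l* and *mt-Nd6* lay below the highest nuclear member, *Cox4i1*. The highest mean levels over the 32 libraries were 17700 for *mt-Co1*, 9110 for *mt-Co2* and 7070 for *mt-Atp6*, and the lowest were 924 for *mt-Nd3*, 850 for *mt-Nd4l* and 78.4 for *mt-Nd6*, the one mRNA of the light strand. Of the nuclear members, *Cox4i1* (1040), *Atp5f1b* (786) and *Atp5f1a* (596) had the highest mean levels on this scale. *Cox6a2* (5.33), *Cox6b2* (0.685) and *Cox4i2* (0.14) had the lowest.

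The comparison of treated genotypes asks how expression differs once *Trex1* has been deleted. On days 3 and 4, the mitochondrial mRNAs were lower in treated FL/FL than in treated WT/FL cells, while the median difference of the nuclear members was near 0. The 13 mitochondrial genes held, of all counts, 2.80% and 3.16% in treated FL/FL cells on day 1, 2.05% and 2.08% on day 2, 1.25% and 1.18% on day 3, and 1.72% and 1.45% on day 4. Treated WT/FL cells had 2.97% and 2.63% on day 1, 2.84% and 2.48% on day 2, 2.37% and 1.87% on day 3, and 2.54% and 2.89% on day 4. The groups overlapped on day 1 and were apart from day 2. In untreated libraries of both genotypes the share was 1.98% to 3.68% over all days. Since these are bulk samples, fewer cells of a type and less RNA per cell cannot be told apart.

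The counts of the 83 nuclear members made up 0.903% and 0.928% of treated FL/FL libraries on day 1 and 0.558% and 0.524% on day 4, against 0.901% and 0.889%, and then 0.580% and 0.559%, in treated WT/FL libraries. This fall was of similar size in both genotypes. Mitochondrial counts per nuclear count were 2.21 and 2.13 in treated FL/FL libraries on day 3 and 4.11 and 3.29 in treated WT/FL libraries, and on day 4 they were 3.08 and 2.77 against 4.39 and 5.17. Expressed as the mean log2 CPM of the mitochondrial minus that of the nuclear members, the values on day 3 were 2.584 and 2.583 in FL/FL and 3.843 and 3.426 in WT/FL. The pooled standard deviation of this difference within groups was 0.161. It is a description with no test.

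**Figure D1:**
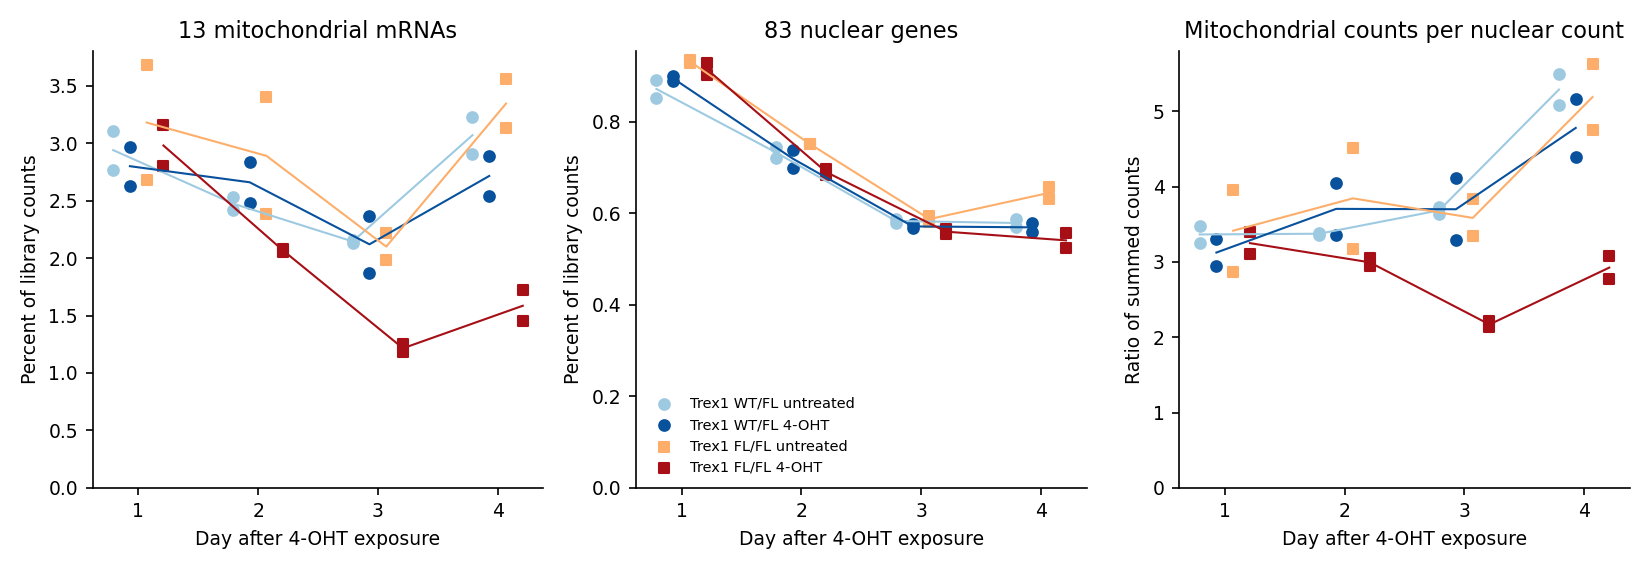
Summed counts of the 13 mitochondrial and 83 nuclear members as percent of library counts and their ratio (y axes), by day after 4-OHT exposure (x axis). Points are libraries and lines join group means; the treated Trex1 FL/FL libraries sit lowest in mitochondrial share on days 3 and 4, at 1.18% to 1.72%, while the nuclear share falls from day 1 to day 3 in all 4 arms.

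Tests were made with edgeR's quasi-likelihood test on all 15257 genes that passed the filter, and a member counts as called when its adjusted p (Benjamini-Hochberg) was below 0.05. Log2 fold changes of genotype are FL/FL over WT/FL. On day 1 after 4-OHT, no member was called (nuclear median 0.02, mitochondrial median 0.07), where 0.00655% of all genes were called higher and 0.0131% lower. At an unadjusted p below 0.05 there was 1 nuclear and 0 mitochondrial members, and DESeq2 called 0. On day 2, the complex III subunit *Uqcrq* was higher (log2 0.26, adjusted p = 0.048) and *Cox7a2l*, a complex IV paralogue that helps to join complexes III and IV, was lower (log2 -0.22, adjusted p = 0.0301), beside 7.79% and 4.79% of all genes. The mitochondrial median on day 2 was -0.41, with 0 called by edgeR, 5 at an unadjusted p below 0.05, and 2 called by DESeq2.

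On day 3, 12 of the 13 mitochondrial mRNAs fell, with a median of -1.0, when 9.11% of all genes were called lower. Of 82 nuclear members, 7 were higher and 1 lower (median 0.02), beside 9.90% and 9.11% of all genes. On day 4, 8 mitochondrial mRNAs fell and 0 rose (median -0.85), beside 16.8% of all genes called lower and 13.4% called higher. Nuclear members were called higher in 13 and lower in 4 cases on day 4, with a median of 0.05. All 13 mitochondrial mRNAs were lower in both FL/FL than in both WT/FL libraries on day 3 and on day 4, where 29.4% and 35.0% of all genes tested were. On day 2 this held for 9 of 13, beside 26.6% of all genes. At the stricter limits of the study (adjusted p under 0.01 with a log2 fold change beyond 1.5 either way), 1 member (*Cox6a2*) passed on days 3 and 4, as did 0.872% and 2.98% of all genes.

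**Figure D2:**
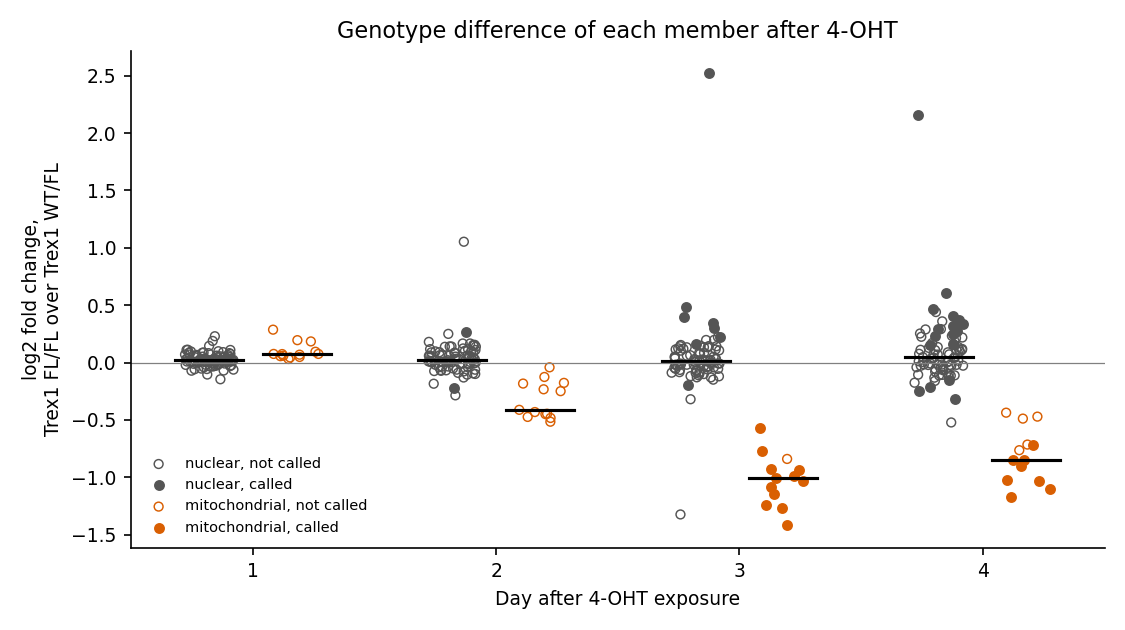
Log2 fold change of Trex1 FL/FL over Trex1 WT/FL after 4-OHT (y axis) for each of the 95 tested members, by day (x axis). Filled points passed an adjusted p of 0.05 and black bars are medians; the mitochondrial medians lie at -1.0 on day 3 and -0.85 on day 4, and the nuclear medians at 0.02 and 0.05.

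Among the subunits of complex I that mitochondrial DNA encodes, *mt-Nd1* had no words shared with other genes. On day 3 its level was 558 and 539 CPM in treated FL/FL cells, against 1170 and 918 CPM in treated WT/FL cells. On day 4 the values were 1010 and 871 CPM against 1600 and 1920 CPM. Both FL/FL libraries lay below both WT/FL libraries on each day, and the log2 fold change was -0.93 on day 3 (SE 0.178, adjusted p = 0.00108) and -0.90 on day 4 (SE 0.177, adjusted p = 0.000764).

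*mt-Nd2* behaved much alike, at 350 and 345 CPM against 754 and 576 CPM on day 3 and at 653 and 577 CPM against 1030 and 1190 CPM on day 4. *mt-Nd4* was at 538 and 520 CPM against 1320 and 1020 CPM on day 3, and at 883 and 730 CPM against 1580 and 1890 CPM on day 4. *mt-Nd5* was at 654 and 639 CPM against 1470 and 1120 CPM, and then at 980 and 847 CPM against 1750 and 1960 CPM. In none of these 3 genes did the groups overlap, and their log2 fold changes were -0.94, -1.15 and -1.0 on day 3 and -0.85, -1.10 and -1.02 on day 4 (largest adjusted p 0.00151).

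The 3 least abundant complex I mRNAs were less precise. *mt-Nd3* was at 31.6 and 32.9 CPM against 89.3 and 66.3 CPM on day 3 (log2 -1.27, adjusted p = 0.00673) and at 85.2 and 51.1 CPM against 144 and 135 CPM on day 4 (log2 -1.03, adjusted p = 0.0135). *mt-Nd4l* was at 38.3 and 31.2 CPM against 109 and 75.4 CPM on day 3 (log2 -1.42, adjusted p = 0.0067), and on day 4 at 71.6 and 58 CPM against 90.8 and 129 CPM, which did not pass (log2 -0.76, adjusted p = 0.0989) unless the counts of nuclear copies were added (log2 -1.0, adjusted p = 0.000343). *mt-Nd6* of the light strand was at 6.67 and 6.81 CPM against 15.7 and 11.9 CPM on day 3 (log2 -1.03, adjusted p = 0.000532). On day 4 it was at 12.4 and 10.1 CPM against 14.2 and 16.4 CPM (log2 -0.44, adjusted p = 0.0923). Both strands were thus represented among the mRNAs that fell on day 3, although the sources used here do not say whether counting used strand.

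Cytochrome b, the mitochondrial subunit of complex III, had the smallest adjusted p of the 13 on both days. *mt-Cytb* was at 502 and 483 CPM in treated FL/FL cells on day 3, at 1340 and 989 CPM in treated WT/FL cells, at 1240 and 1240 CPM in untreated WT/FL cells and at 1150 and 1240 CPM in untreated FL/FL cells. The treated FL/FL libraries were at 42.2% of treated WT/FL (log2 -1.24, SE 0.178, adjusted p = 6.96e-05). On day 4 they were at 813 and 690 CPM, against 1590 and 1790 CPM in treated WT/FL cells (log2 -1.17, adjusted p = 5.67e-05).

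The catalytic core of complex IV is made of *mt-Co1*, *mt-Co2* and *mt-Co3*. *mt-Co1*, the most abundant mRNA of all members, had the smallest difference on day 3, when it was at 8300 and 7390 CPM against 12700 and 10600 CPM (log2 -0.57, SE 0.174, adjusted p = 0.0282). On day 4 it was at 10300 and 8770 CPM against 11800 and 14700 CPM, which did not pass (log2 -0.47, adjusted p = 0.051). *mt-Co2* was at 1130 and 1230 CPM against 2660 and 2030 CPM on day 3 (log2 -0.99, adjusted p = 0.000259) and at 1820 and 1540 CPM against 3030 and 3010 CPM on day 4 (log2 -0.85, adjusted p = 0.000573). *mt-Co3* was at 666 and 677 CPM against 1590 and 814 CPM on day 3, where the WT/FL libraries lay far apart, and did not pass on either day (log2 -0.84 and -0.71, adjusted p = 0.0872 and 0.114). With the counts of nuclear copies added, *mt-Co3* was called on both days (log2 -1.01 and -0.90), and the number of mitochondrial mRNAs called lower was 13 on day 3 and 10 on day 4.

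Both mitochondrial subunits of complex V lie in the proton channel part of ATP synthase. *mt-Atp6* was at 851 and 952 CPM against 1740 and 1330 CPM on day 3 (log2 -0.77, adjusted p = 0.0233) and at 1400 and 1270 CPM against 2240 and 2150 CPM on day 4 (log2 -0.72, adjusted p = 0.0218). *mt-Atp8* was at 48.9 and 44.3 CPM against 119 and 78.7 CPM on day 3 (log2 -1.09, adjusted p = 0.0147). On day 4 it was at 89.7 and 63.9 CPM against 105 and 111 CPM (log2 -0.49, adjusted p = 0.239).

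**Figure D3:**
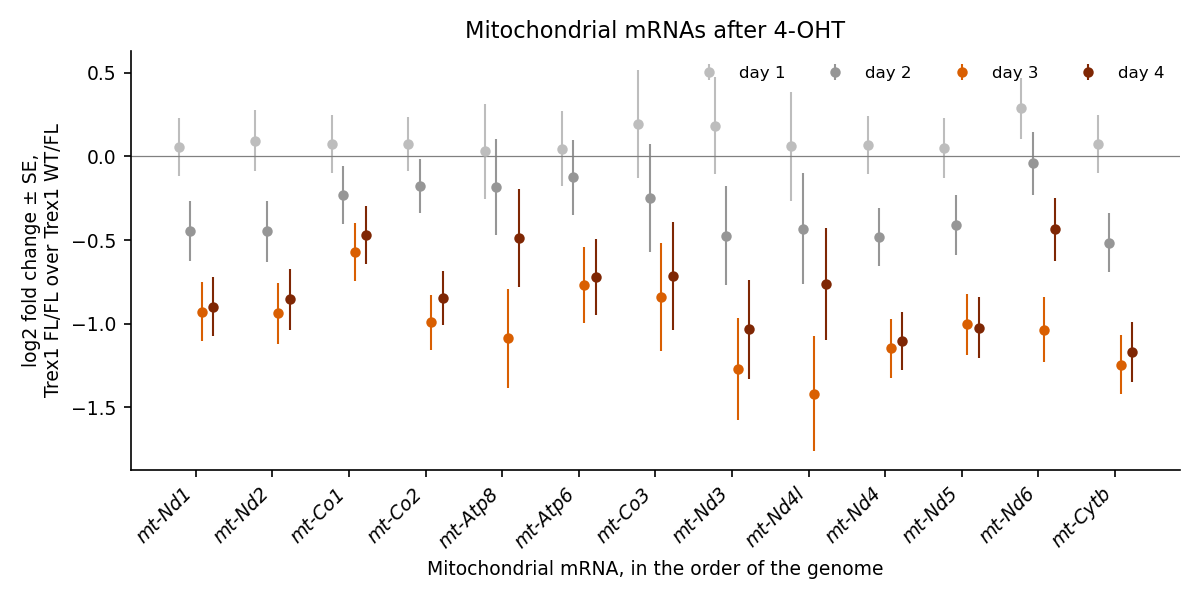
Log2 fold change of Trex1 FL/FL over Trex1 WT/FL after 4-OHT with its SE (y axis) for the 13 mitochondrial mRNAs in genome order (x axis), days 1 to 4. On day 1 all values lie between 0.03 and 0.29, and on day 3 between -1.42 (mt-Nd4l) and -0.57 (mt-Co1).

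Along the heavy strand, genes farther from the start of the transcript tended to have lower log2 fold changes on day 3. Over the 12 mRNAs of that strand, order and log2 fold change had a Pearson's r of -0.286 (day 2), -0.555 (day 3) and -0.512 (day 4) (Spearman's rho -0.406, -0.629 and -0.524). These genes share a transcript and the same libraries, so the values are a description. Of the ribosomal RNAs at the start of the same strand, *mt-Rnr2* was lower on day 3, by more than *mt-Co1* (log2 -0.57). It was at 1070 and 1060 CPM in treated FL/FL cells, against 1770 and 1530 CPM in treated WT/FL cells (log2 -0.63, adjusted p = 0.0311). Its log2 fold change was -0.30 on day 4 (adjusted p = 0.28). *mt-Rnr1* was not called on either day, at a log2 fold change of -0.03 (adjusted p = 0.953) and -0.01 (adjusted p = 0.98).

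Single libraries weighed on these counts. Without the first treated WT/FL library, 7 mitochondrial mRNAs were called in place of 12 and the median was -0.78, and without the second the median was -1.22. On day 4, leaving out any of the 4 libraries gave 6 to 7 calls and a median between -0.98 and -0.71.

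The nuclear members that differed between treated genotypes did so by less, apart from 1. *Cox6a2*, the heart and muscle form of a complex IV subunit, reached 8.36 and 6.09 CPM in treated FL/FL cells on day 3, followed by 4.57 and 5.87 CPM on day 4. In treated WT/FL cells it was at 0.761 and 1.76 CPM, and then at 1.23 and 1.10 CPM. Untreated cells of both genotypes were at 0.583 to 0.968 CPM on these days, so no control library came near the treated FL/FL ones. The rise was 5.74-fold on day 3 (log2 2.52, SE 0.382, adjusted p = 2.02e-05) and 4.46-fold on day 4 (log2 2.16, adjusted p = 6.2e-05). On day 2 the values were 2.08 and 2.33 CPM against 1.05 and 1.08 CPM (log2 1.05, adjusted p = 0.0736). Its ubiquitous sister *Cox6a1* was at 89.7 and 77.8 CPM against 80.1 and 77.8 CPM on day 3 (log2 0.08, adjusted p = 0.406), and per length its mean level over all libraries was 433 against 5.33 for *Cox6a2*.

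*Uqcrq*, a small ubiquinone-binding subunit of complex III, was at 64.3 and 61.2 CPM against 45.4 and 44.1 CPM on day 3 and at 69.3 and 56.7 CPM against 42.1 and 40.6 CPM on day 4. The groups were apart on both days, and FL/FL libraries lay wholly above WT/FL ones for 28.0% and 27.9% of all genes tested. The rise was 1.40-fold (log2 0.49, adjusted p = 0.00024) and 1.52-fold (log2 0.61, SE 0.0901, adjusted p = 6.41e-06). Untreated FL/FL cells were at 59.3 and 51.8 CPM on day 4, overlapping the treated ones, and untreated WT/FL cells at 44.2 and 40.8 CPM, so that *Uqcrq* was higher in FL/FL without 4-OHT too (log2 0.39, adjusted p = 0.0285). The other members called higher on day 3 were *Ndufa11* (log2 0.39), *Ndufa12* (0.35), *Ndufs5* (0.30) and *Ndufa2* (0.22) of complex I and the iron-sulphur subunit *Sdhb* of complex II (0.16). *Uqcrh*, the hinge protein of complex III, fell on day 3, from 89.9 and 84.9 CPM in WT/FL to 75.8 and 76.4 CPM in FL/FL (log2 -0.20, adjusted p = 0.0365).

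On day 4 the core subunit *Ndufs3* of complex I rose, at 57.8 and 55 CPM against 42.4 and 44.7 CPM (log2 0.37, SE 0.0633, adjusted p = 3.75e-05). Of the accessory subunits of complex I, *Ndufb1* was at 35.8 and 31.8 CPM against 25.6 and 23.2 CPM (log2 0.47, adjusted p = 0.000254) and *Ndufa2* at 62.3 and 53.8 CPM against 48.4 and 43.7 CPM (log2 0.33, adjusted p = 0.00107). *Ndufa6*, *Ndufa7*, *Ndufa13* and *Ndufc2* were called higher too, as were *Sdhb*, *Cox7a2l*, *Atp5mk* and *Atp5pf*. A genotype difference of similar size was present in untreated cells for many of them: of the 13 nuclear members called higher after 4-OHT on day 4, 12 had a log2 fold change above 0 and 6 were called higher without 4-OHT (*Uqcrq*, *Ndufa2*, *Ndufa6*, *Ndufa13*, *Ndufc2* and *Atp5pf*). Mean levels in FL/FL and WT/FL cells were 58.1 and 46.5 CPM untreated against 58.0 and 46.0 CPM treated for *Ndufa2*, and 65.3 and 50.9 CPM untreated against 63.8 and 52.6 CPM treated for *Ndufc2*. Of the 13, 2 (*Cox6a2* and *Ndufs3*) passed the test of a larger genotype difference after 4-OHT than without. *Cox7a2l* had been lower on day 2 and was at 259 and 237 CPM against 216 and 206 CPM on day 4 (log2 0.23, adjusted p = 0.00902).

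Of nuclear members, 4 fell on day 4. *Ndufs1*, which carries iron-sulphur clusters of complex I, was at 58.1 and 60.8 CPM against 72.3 and 76 CPM (log2 -0.32, SE 0.0568, adjusted p = 6.83e-05). The alpha and beta subunits of the catalytic head of ATP synthase were lower as well, *Atp5f1a* at 450 and 429 CPM against 509 and 509 CPM (log2 -0.21, adjusted p = 0.000402) and *Atp5f1b* at 419 and 419 CPM against 470 and 462 CPM (log2 -0.15, adjusted p = 0.0161). *Ndufv3* was at 30 and 30.4 CPM against 36.6 and 35 CPM (log2 -0.25, adjusted p = 0.0135). In each of the 4 the groups were apart. FL/FL libraries lay wholly below WT/FL ones for 15 of 82 nuclear members and 35.0% of all genes tested.

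The split of nuclear calls depended on the scaling. With library totals alone in place of TMM factors, which moved the median of all genes by -0.096 on day 4, 7 nuclear members were called higher and 14 lower, and the nuclear median was -0.05. Leaving out 1 library gave 4 to 20 members called higher on day 4, with 4 without the first and 20 without the second treated FL/FL library. *Uqcrq*, *Ndufs3* and *Cox6a2* were relative rises under TMM scaling, as are all directions of nuclear members given here.

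By complex as assigned from the symbol (*Ndufa4* under complex I), 7 of 38 nuclear members of complex I were higher and 2 lower on day 4 (median 0.08), 1 of 4 of complex II higher (0.03), 1 of 8 of complex III higher (0.02), 2 of 14 of complex IV higher (0.08), and 2 of 18 of complex V higher and 2 lower (-0.02), to be read beside the 13.4% of all genes called higher and 16.8% called lower. The core subunits *Ndufs7*, *Ndufs8*, *Ndufv1*, *Ndufv2*, *Sdha*, *Sdhc*, *Sdhd*, *Uqcrc1*, *Uqcrc2*, *Uqcrfs1* and *Cox4i1* were not called on any day after 4-OHT. Their log2 fold changes on day 4 ran from -0.13 (*Ndufs8*) to 0.17 (*Ndufs7*).

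**Figure D4:**
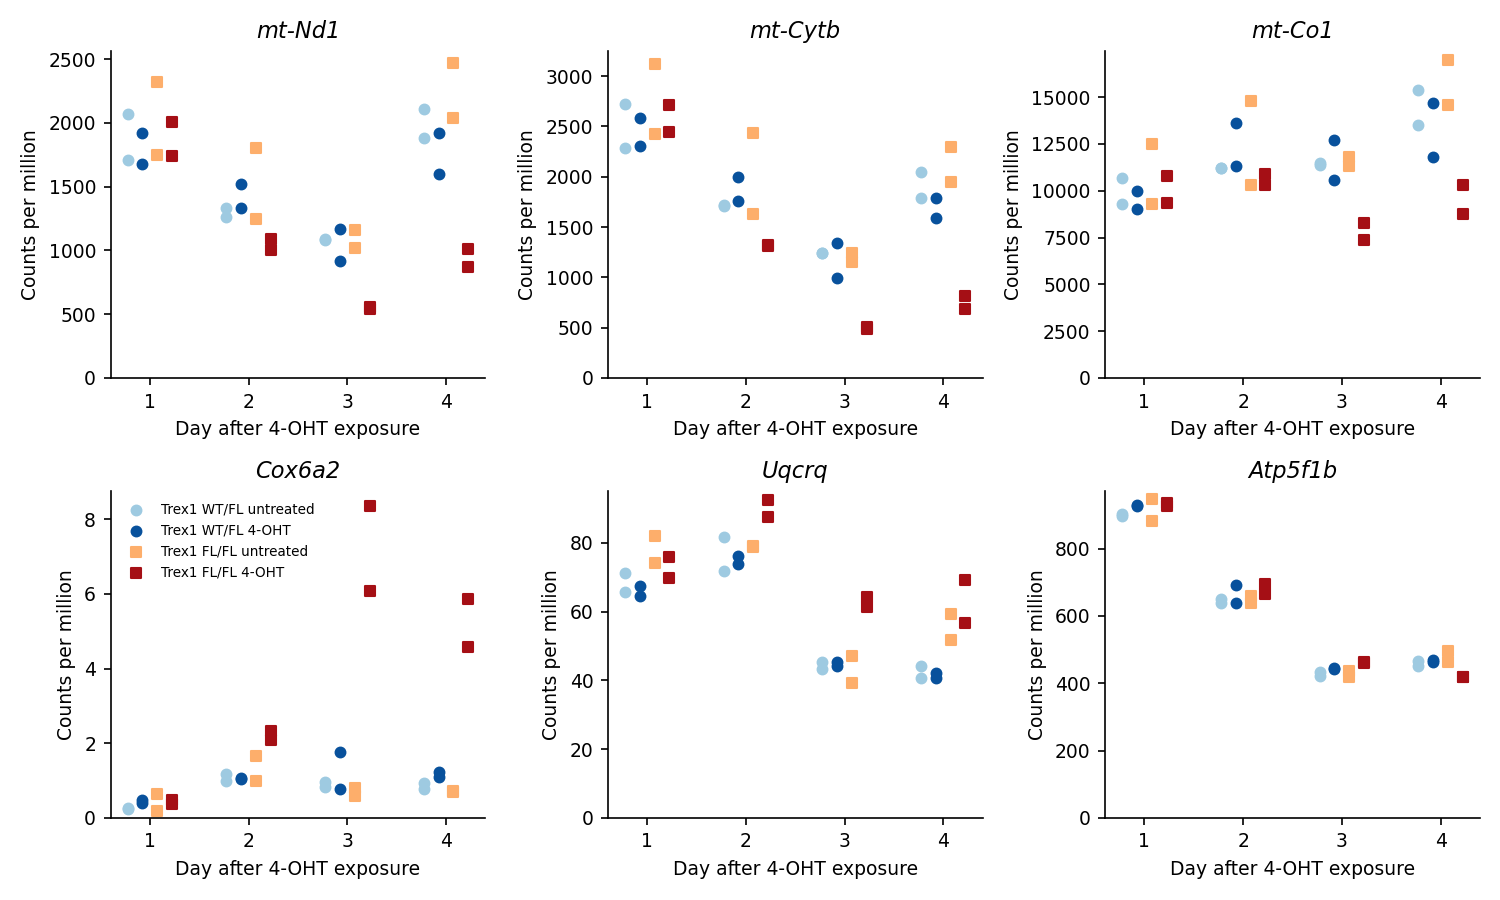
CPM (y axes, from 0) of 6 members in each of the 32 libraries, by day after 4-OHT exposure (x axes). In the treated Trex1 FL/FL libraries mt-Nd1, mt-Cytb and mt-Co1 sit below the controls on day 3, Cox6a2 reaches 8.36 CPM, Uqcrq lies above the controls on day 3 but overlaps untreated Trex1 FL/FL on day 4, and Atp5f1b falls from day 1 to day 3 in all arms.

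Without 4-OHT, where the floxed alleles are intact, the genotypes differed little in mitochondrial mRNAs. The mitochondrial medians were 0.13, 0.24, -0.03 and 0.18 on days 1 to 4, and those of the nuclear members 0.13, 0.03, 0.02 and 0.23. On days 1, 2 and 3, 0 nuclear members were called, with 33, 5 and 1 at an unadjusted p below 0.05. DESeq2 called 1, 0 and 0 on these days. On day 4, 18 nuclear members were called higher in untreated FL/FL cells and 0 lower, when 0.826% and 1.18% of all genes were. The smallest adjusted p belonged to *Cox8a*, *Atp5pf* and *Ndufc2* (log2 0.33, 0.24 and 0.36, adjusted p = 0.024, 0.028 and 0.028). *Cox8a* was at 119 and 117 CPM against 88.7 and 98.8 CPM. Leaving out the first or the second WT/FL library gave 0 and 1 calls, leaving out the first or the second FL/FL library 0 and 5, and DESeq2 made 33. Stromal markers moved with this comparison: they summed to 2.27 and 2.21 CPM in these untreated FL/FL libraries and to 0.152 and 0.204 CPM in the WT/FL ones, with 3 of 4 tested at an unadjusted p below 0.05 and 0 called by edgeR (median log2 3.11). Their marker *Dcn* was called in the interaction on day 4 (log2 -3.99, adjusted p = 0.0312), and the part of such cells in the nuclear result was not tested.

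Whether the genotype difference was larger after 4-OHT than without was tested as an interaction. On day 3, 8 mitochondrial mRNAs had a lower genotype difference after 4-OHT (median over all 13 -0.98), beside 4.04% of all genes, and 2 nuclear members, *Cox6a2* (log2 2.89, adjusted p = 0.00104) and *Uqcrq* (0.52, adjusted p = 0.00893), a higher one, beside 4.90%. Without the first treated WT/FL library 1 mitochondrial mRNA was called, and 2 to 4 without either untreated WT/FL library, the second untreated FL/FL library or either treated FL/FL library. On day 4 there were 10 mitochondrial calls, all lower (median -1.07), led by *mt-Cytb* (log2 -1.32, adjusted p = 0.00102), *mt-Nd4* (-1.20, adjusted p = 0.00201) and *mt-Nd5* (-1.11, adjusted p = 0.00495). Leaving out 1 library gave 5 to 9. With the counts of nuclear copies added, 12 of 13 were called on day 3 and on day 4. The exception was *mt-Co1* (adjusted p = 0.178 and 0.116), to which no copy was added.

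Among nuclear members the interaction on day 4 was lower for 10 and higher for 2, with a median of -0.16, beside 8.78% and 7.38% of all genes. With library totals alone there were 26 and 1. *Atp5f1a* (log2 -0.32, adjusted p = 0.000408), *Atp5if1*, the inhibitor of ATP synthase (-0.44, adjusted p = 0.00134), and *Ndufs8* of complex I (-0.40, adjusted p = 0.00208) led the lower ones, and *Cox6a2* (2.39, adjusted p = 0.00282) and *Ndufs3* (0.27, adjusted p = 0.0377) were the higher ones.

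The effect of 4-OHT itself was judged within genotypes. In WT/FL cells no member was called on day 3 or day 4, when 0.131% and 0.151% of all genes were higher and 0.406% and 0.321% lower. At an unadjusted p below 0.05 there were 3 and 1 nuclear and 0 mitochondrial members, and DESeq2 called 0. The mitochondrial medians were -0.02 and -0.19.

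In FL/FL cells, mitochondrial mRNAs were lower after 4-OHT from day 2. On that day 4 were called (*mt-Cytb* -0.63, *mt-Nd4* -0.53, *mt-Nd1* -0.54 and *mt-Nd2* -0.55, with adjusted p = 0.0185, 0.0445, 0.0455 and 0.0493), beside 6.40% of all genes lower and 10.0% higher. The second untreated FL/FL library stood high in mitochondrial counts on day 2, at 3.40% against 2.38% in the first, and without it 0 were called, as also without either treated library. On day 3, 12 were called lower (median -1.0), and on day 4 all 13 (median -1.26), beside 11.7% and 15.9% of all genes. This comparison shares its treated libraries with the genotype comparison.

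Nuclear members in FL/FL cells split on day 3 into 5 higher and 7 lower after 4-OHT, beside 11.8% and 11.7% of all genes. On day 4, 2 were higher and 35 lower (median -0.18), beside 13.7% and 15.9%. The mean log2 CPM of nuclear members on day 4 was highest in the untreated FL/FL libraries, the reference here (5.728 and 5.662). It was 5.615 and 5.509 in treated FL/FL, 5.5 and 5.446 in treated WT/FL, and 5.437 and 5.513 in untreated WT/FL libraries. The part of this high reference in the 35 calls was not tested. The smallest adjusted p on day 4 belonged to *Atp5if1* (log2 -0.49, adjusted p = 1.63e-06), *Atp5f1a* (-0.31, adjusted p = 2.3e-06) and *Atp5mc3* (-0.39, adjusted p = 5.86e-06) among the lower, and to *Cox6a2* (2.87, adjusted p = 2.15e-06) and *Ndufs3* (0.24, adjusted p = 0.00505) among the higher. On day 3 the leading genes were *Cox6a2* (3.37), *Uqcrq* (0.53) and *Sdhb* (0.21) upwards and *Uqcrh* (-0.27), *Ndufs1* (-0.21) and *Ndufv3* (-0.28) downwards. Leaving out 1 library gave 17 to 35 nuclear members lower on day 4, with 17 without the first untreated and 18 without the second treated library.

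More nuclear members were called over days in culture than between genotypes. From day 1 to day 4, 59 of 82 were called lower and 7 higher in untreated WT/FL cells (median -0.37), beside 30.8% and 31.9% of all genes. In treated WT/FL cells 65 were lower and 4 higher (-0.45), beside 31.1% and 32.2%. In untreated FL/FL cells 51 were lower and 8 higher (-0.29), beside 30.8% and 32.2%, and in treated FL/FL cells 56 lower and 8 higher (-0.41), beside 32.0% and 32.1%. Library totals alone moved the median of all genes by -0.315 to -0.192 in these 4 comparisons, and changes are given relative to TMM scaling, where that median was between 0.002 and 0.021.

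*Atp5f1b* had the smallest adjusted p of the members that fell in each arm. It went from 898 and 902 CPM on day 1 to 467 and 451 CPM on day 4 in untreated WT/FL cells, and at 936 and 927 CPM and then 419 and 419 CPM in treated FL/FL cells. The log2 fold changes were -0.97 and -1.15 there, and -1.0 and -0.93 in treated WT/FL and untreated FL/FL cells (largest adjusted p 1.89e-15). *Atp5mc1*, which codes for the proton-carrying c subunit, fell by 1.02, 1.17, 1.00 and 1.22 on the log2 scale in untreated WT/FL, treated WT/FL, untreated FL/FL and treated FL/FL cells. *Ndufs8*, *Atp5f1a* and *Atp5mc3* followed, and *Ndufs1* was among the leading 5 in FL/FL cells.

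*Cox7a2l* went the other way. It rose from 144 and 150 CPM on day 1 to 211 and 213 CPM on day 4 in untreated WT/FL cells and from 146 and 147 CPM to 259 and 237 CPM in treated FL/FL cells (log2 0.53 and 0.76). *Ndufa6* and *Ndufc2* of complex I rose in all 4 arms, by 0.27 to 0.57 and 0.28 to 0.56. Its relative *Cox7a2* fell in level, from 77.1 and 74.3 to 48.5 and 49.1 CPM in untreated WT/FL cells, and the muscle form *Cox7a1* stayed between 0.757 and 3.19 CPM in all 32 libraries.

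Over the whole of days 1 to 4, the mitochondrial mRNAs outside treated FL/FL cells showed no net fall like that of the nuclear members. From day 1 to day 2, their median log2 changes were -0.288 in untreated WT/FL, -0.33 in treated WT/FL, -0.332 in untreated FL/FL and -0.777 in treated FL/FL cells. The mRNAs fell again from day 2 to day 3 and rose from day 3 to day 4 in each arm by the median, as given below. Their median change from day 1 to day 4 was 0.06 in untreated WT/FL, -0.13 in treated WT/FL and 0.15 in untreated FL/FL cells. Only *mt-Co1* rose in these arms (log2 0.53, 0.47 and 0.54, adjusted p = 0.0141, 0.0252 and 0.0127), and only *mt-Cytb* in treated WT/FL cells fell (log2 -0.53, adjusted p = 0.0136). In treated FL/FL cells 12 of 13 fell, with a median of -1.0 and the largest change in *mt-Cytb* (log2 -1.78, SE 0.18, adjusted p = 9.34e-08). *mt-Co1* was the exception there, at 9330 and 10800 CPM on day 1 and 10300 and 8770 CPM on day 4 (log2 -0.07).

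**Figure D5:**
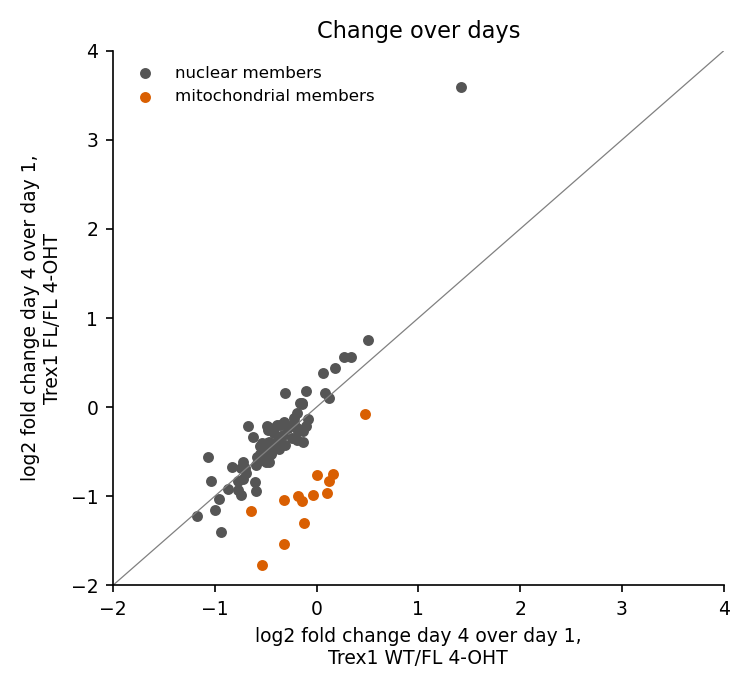
Log2 fold change of day 4 over day 1 in treated Trex1 WT/FL (x axis) and treated Trex1 FL/FL cells (y axis) for each tested member, with the line of equal change. Most nuclear members lie near the line, Cox6a2 far above it, with nuclear medians of -0.45 and -0.41, and mitochondrial mRNAs lie below it with medians of -0.13 and -1.0.

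Several subunits have tissue-specific sister genes, and 1 form was far more abundant than another for most of them. Per length, mean levels over all libraries were 386 for *Cox6b1* and 0.685 for *Cox6b2*, 1040 for *Cox4i1* and 0.14 for *Cox4i2*, and 178 for *Cox7a2*, 400 for *Cox7a2l* and 10.4 for *Cox7a1*. The 3 genes of the c subunit were at 333 (*Atp5mc3*), 204 (*Atp5mc1*) and 20.7 (*Atp5mc2*). *Ndufa4l2*, *Cox7b2*, *Cox8b* and *Cox8c* did not reach 10 counts in 2 libraries and are no members. Of the minor forms, only *Cox6a2* was called between genotypes after 4-OHT.

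*AA467197* is a paralogue of *Ndufa4* that activated macrophages are known to induce and that is no member by symbol. It was at 4.43 and 6.24 CPM in treated FL/FL cells on day 2, against 1.70 and 2.23 CPM in treated WT/FL cells (log2 1.44, adjusted p = 0.00272). The log2 fold change was 0.94 on day 3 (adjusted p = 0.0562) and 1.11 on day 4 (adjusted p = 0.0195). *Ndufa4* itself (log2 -0.01, -0.12 and -0.03 on these days) was not called.

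Other genes of mitochondrial function were counted from fixed lists, on day 4 between treated genotypes. Assembly factors of the complexes were called higher in 16 and lower in 0 of 50 genes (median 0.13), and mitochondrial ribosomal proteins higher in 27 and lower in 3 of 78 (0.17), beside 13.4% and 16.8% of all genes. Cytosolic ribosomal proteins had 45 higher and 6 lower of 96 (0.17), and on day 3 they had 1 higher and 6 lower. Untreated cells showed day 4 medians of 0.11, 0.16 and 0.19 for these lists, with 2, 2 and 20 genes called higher and 0 lower, and the interaction was called higher in 6, 4 and 2 and lower in 0, 4 and 3 of their genes. Electron carriers and other dehydrogenases had 3 higher and 3 lower of 20 (0.02). Of the enzymes of the TCA cycle, 0 were higher and 6 lower of 13 (-0.15).

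Factors that act on mitochondrial DNA and RNA gave mixed values on day 4, beside 13.4% of all genes called higher and 16.8% called lower. In DNA upkeep, the kinase *Dguok* rose (log2 0.33), and the helicase *Twnk* (-0.47) and the polymerase *Polg* (-0.25) fell, with 11 of 14 genes not called. In transcription, the elongation factor *Tefm* rose (0.51), and *Tfb2m*, which opens the promoter, and *Mterf1b* fell (-0.45 and -1.22), 3 of 10 in all. The polymerase *Polrmt* and the packaging factor *Tfam* were not called on day 3 (log2 -0.02 and 0.00) or day 4 (-0.01 and 0.10).

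In RNA processing and stability 4 of 20 rose and 3 fell on day 4, beside 13.4% and 16.8% of all genes. *Pnpt1*, the polynucleotide phosphorylase that degrades mitochondrial RNA and is known as an interferon-inducible gene, was at 105 and 104 CPM in treated FL/FL cells on day 2, 61.9 and 62.1 CPM on day 3 and 68.7 and 67.2 CPM on day 4. Treated WT/FL cells were at 63.4 and 58.4, 40.4 and 41.9, and 34.1 and 33.7 CPM on these days. The groups were apart on each of the 3 days (log2 0.77, 0.59 and 1.00, adjusted p = 4.72e-10, 4.61e-08 and 5.79e-13). FL/FL libraries lay wholly above WT/FL ones for 25.2%, 28.0% and 27.9% of all genes tested on these days. *Slirp*, which binds mitochondrial mRNAs together with the product of *Lrpprc*, rose (log2 0.59 on day 4), while *Lrpprc* (-0.39) and *Supv3l1* (-0.45), the helicase partner of the phosphorylase, fell.

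Of 11 regulators of respiratory genes tested, 3 fell and 0 rose on both day 3 and day 4. Of all genes, 9.11% and 16.8% were called lower and 9.9% and 13.4% higher on these days. *Myc* was at 2.22 and 2.14 CPM against 5.37 and 3.98 CPM on day 3 and at 7.03 and 6.14 CPM against 17.8 and 14.5 CPM on day 4 (log2 -1.11 and -1.29, adjusted p = 9.63e-06 and 1.33e-08). *Hif1a* (-0.71 and -0.59) and *Gabpb2* (-0.21 and -0.56) were the others. *Perm1* was called on day 2 alone (log2 3.10, SE 1.01, adjusted p = 0.0408).

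Other gene groups moved with the same comparison. Beside them, 9.9% of all genes were called higher and 9.11% lower on day 3, and 13.4% and 16.8% on day 4. Interferon-inducible markers were called higher in 12 of 12 genes on day 3 (median 1.35) and on day 4 (2.92), and summed to 9100 to 10700 CPM in treated FL/FL libraries on days 2 to 4, against at most 4110 CPM in any other library. Proliferation markers fell in 10 of 10 genes on day 4 (median -2.32) and in 0 of 10 on day 3 (median 0.01, 4 at an unadjusted p below 0.05), with sums of 110 and 96.5 CPM in treated FL/FL and 111 and 98.1 CPM in treated WT/FL libraries on day 3. Of 10 macrophage markers, 2 were higher and 6 lower on day 3 (median -0.24) and 2 higher and 4 lower on day 4 (-0.07). Of 9 neutrophil and progenitor, 5 dendritic cell and 4 stromal markers tested, none was called on day 3 or day 4 (1, 1 and 0 at an unadjusted p below 0.05 on day 3, and 0 of each on day 4), and no lymphocyte, mast cell or erythroid marker passed the filter. The part of these groups in the mitochondrial result was not tested.

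Promoter sequences of RefSeq (GRCm38.p6, 250 bases before to 50 after the start) were at hand for 67 of the 83 nuclear members. The 8-base core of NRF1 (GCATGCGC), a factor known for respiratory genes, was found on either strand in 10 of them (14.9%) and in 2.80% of all 27025 promoters. The GABPA core (CCGGAAG) was found in 15 (22.4%) against 9.12%, the YY1 core (AAGATGGC) in 9 (13.4%) against 2.88%, and the core of an interferon-stimulated response element (GAAANNGAA) in 7 (10.4%) against 8.57%. A match is a description of letters and not of binding. Of the nuclear members called higher on day 4 after 4-OHT, *Atp5pf*, *Cox7a2l*, *Ndufa7*, *Ndufa13*, *Ndufb1* and *Ndufc2* had a window without any such match. A link between matches and the rise was not tested. The promoters of *Ndufs3*, *Ndufa6* and *Sdhb* are shown because these genes were higher on that day and their windows hold such matches, in capitals.
Ndufs3 at chr2:90904672-90904971, minus strand, with 2 matches to GABPA and 1 to the response element: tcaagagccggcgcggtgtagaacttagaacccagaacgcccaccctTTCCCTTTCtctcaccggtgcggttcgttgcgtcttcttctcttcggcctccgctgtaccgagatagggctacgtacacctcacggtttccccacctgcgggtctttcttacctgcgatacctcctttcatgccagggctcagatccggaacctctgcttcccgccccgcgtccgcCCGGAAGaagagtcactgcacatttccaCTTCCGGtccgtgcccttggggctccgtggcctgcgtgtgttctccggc
Ndufa6 at chr15:82354242-82354541, minus strand, with 1 match to NRF1: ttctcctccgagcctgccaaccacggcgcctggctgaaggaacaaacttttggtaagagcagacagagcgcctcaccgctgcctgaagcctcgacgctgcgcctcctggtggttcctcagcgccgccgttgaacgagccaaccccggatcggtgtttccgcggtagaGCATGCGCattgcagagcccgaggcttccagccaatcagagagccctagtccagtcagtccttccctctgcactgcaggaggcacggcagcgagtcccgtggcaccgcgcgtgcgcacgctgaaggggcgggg
Sdhb at chr4:140961021-140961320, plus strand, with 1 match each to NRF1 and GABPA: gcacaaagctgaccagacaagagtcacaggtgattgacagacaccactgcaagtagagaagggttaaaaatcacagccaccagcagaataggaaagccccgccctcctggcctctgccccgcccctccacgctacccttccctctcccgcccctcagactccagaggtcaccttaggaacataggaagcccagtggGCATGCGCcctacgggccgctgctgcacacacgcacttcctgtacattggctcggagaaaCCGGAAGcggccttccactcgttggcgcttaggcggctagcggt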

How the data were processed

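RNA of bone marrow-derived macrophages was sequenced in 32 libraries (16 groups of 2). JE served for demultiplexing, FastQC 11.9 for read quality and Salmon for quantification against GRCm39, and tximport then gave values per gene; the annotation release and Salmon's version are not given in the sources used here. What the authors deposited is 1 table of estimated counts, whole numbers without normalization, so no rounding was needed. Splitting of reads between similar transcripts by Salmon can move counts between mitochondrial genes and their nuclear copies. Columns were assigned to groups by the sample labels.

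Of 54281 identifiers, 51048 matched GENCODE vM39 (GRCm39), and 0.32% of counts were in unmatched ones. Members and lists were chosen with earlier results of these data known. Counts were filtered (filterByExpr, minimum count 10), scaled by TMM and fitted with edgeR 4.0.16 in R 4.3.3 (quasi-likelihood, robust, a mean for each of 16 groups, 16 residual degrees of freedom), with Benjamini-Hochberg adjustment over 15257 genes. DESeq2 1.42.0, other scalings, filters and thresholds, and leaving out each library were alternatives; the addition of nuclear copies was chosen after seeing the data. CPM uses TMM-scaled totals. The study's threshold (DESeq2 1.32, adjusted p below 0.01, absolute log2 fold change above 1.5) was counted beside the main one. In counts simulated for the genotype comparison on day 4, 138 of 194 genes changed by 1 on the log2 scale were recovered among 14775 genes, with 2 false calls. Genes were drawn independently of each other there, so the result does not cover genes that move together within libraries. Replicate libraries differed by more than counting noise in all 16 groups (chi-square per degree of freedom 9.55 to 51.5). None was therefore counted as a repeat sequencing of the same library. This comparison cannot tell whether the 2 libraries of a group came from the same animal. Named were *Trex1*, all mitochondrial members, the called nuclear members with the smallest adjusted p (5 in each direction for genotype after 4-OHT and for days, 3 otherwise), sister forms, core subunits (1 is not reported here), the members highest and lowest per length, and list genes called with an absolute log2 fold change above 1; further called members and list genes are named to complete short counts and were chosen after their values were seen. Figures were drawn with matplotlib 3.10.9.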

Additional observations from a re-analysis of the deposited data

Results flagged for a closer look

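The genotype difference of some members was not the same with and without 4-OHT, by edgeR's test of the interaction at an adjusted p below 0.05. Values are log2 differences, after 4-OHT minus without. On day 3 these were *mt-Cytb* (-1.19), *mt-Nd4* (-1.10), *mt-Nd6* (-1.14), *mt-Co2* (-0.96), *mt-Nd5* (-0.98), *mt-Nd1* (-0.93), *mt-Nd2* (-0.90) and *mt-Atp8* (-1.41) among mitochondrial mRNAs, and *Cox6a2* (2.89) and *Uqcrq* (0.52) among nuclear members. On day 4 they were *mt-Cytb* (-1.32), *mt-Nd4* (-1.20), *mt-Nd5* (-1.11), *mt-Nd1* (-1.07), *mt-Co2* (-0.98), *mt-Nd2* (-0.97), *mt-Nd3* (-1.36), *mt-Atp6* (-1.02), *mt-Atp8* (-1.28) and *mt-Nd6* (-0.79) among mitochondrial mRNAs, and *Atp5f1a* (-0.32), *Atp5if1* (-0.44), *Ndufs8* (-0.40), *Atp5mc3* (-0.36), *Ndufv3* (-0.47), *Cox8a* (-0.43), *Cox6a2* (2.39), *Ndufb10* (-0.44), *Ndufs1* (-0.26), *Atp5f1b* (-0.22), *Ndufa4* (-0.31) and *Ndufs3* (0.27) among nuclear members. Of the 10 nuclear members with negative values on day 4, 9 had a log2 fold change of genotype below 0 after 4-OHT and above 0 without, and *Ndufs1* had -0.32 and -0.06. *Cox8a*, for example, was at 89.1 and 84.9 CPM in treated FL/FL, 119 and 117 CPM in untreated FL/FL, 93.9 and 92.6 CPM in treated WT/FL and 88.7 and 98.8 CPM in untreated WT/FL cells. Groups of 2 libraries were too small for a test of outlying libraries.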

How the results depend on the processing

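No paired analysis was possible because the labels give no replicate number, animal or batch. The fall of mitochondrial mRNAs after 4-OHT kept its direction under every alternative run: of 260 values for single mitochondrial calls, 233 stayed past the threshold, 27 did not and 0 reversed, and of 378 for nuclear calls, 301 stayed, 77 did not and 0 reversed. The cause of the changes below was not tested.

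An adjusted p below 0.01 gave for genotype after 4-OHT 4 nuclear members higher on day 3 and 2 lower on day 4, for untreated cells on day 4 0, for the interaction 3 mitochondrial members on day 3 and 5 on day 4 with 1 nuclear higher, and for 4-OHT in FL/FL cells 0 mitochondrial on day 2, 3 nuclear higher and 3 lower on day 3, and 23 lower on day 4. Library totals alone gave for genotype after 4-OHT nuclear medians of -0.0563, -0.028 and -0.0511 on days 2 to 4, 4 nuclear higher on day 3, and a day 4 split of 7 higher against 14 lower. They gave 1 higher and 26 lower for the interaction on day 4, 8 mitochondrial lower on day 2, 14 nuclear lower on day 3 and 1 higher on day 4 for 4-OHT in FL/FL cells. From day 1 to day 4 they gave 3 higher in untreated WT/FL, 2 in treated WT/FL, 3 in untreated FL/FL and 4 in treated FL/FL cells. Without the filter, 13 mitochondrial mRNAs were lower for genotype on day 4, 13 for the interaction on day 3 and 13 for 4-OHT in FL/FL cells on day 2, with 4 nuclear lower on day 3 there and 1 nuclear higher for the interaction on day 4, as with upper-quartile factors (1). With the compared groups only, 2 nuclear members were higher in untreated cells on day 4 and 1 mitochondrial lower for 4-OHT on day 2. DESeq2 gave 33 for untreated cells on day 4.

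Leaving out 1 library in turn gave these ranges. For genotype after 4-OHT the mitochondrial medians were -0.0118 to 0.172, -0.455 to -0.242, -1.22 to -0.781 and -0.977 to -0.713 on days 1 to 4, and the nuclear ones -0.0117 to 0.0517, -0.0192 to 0.0669, -0.000362 to 0.0423 and -0.00231 to 0.101, the negative value on day 4 being without the first treated FL/FL library. Mitochondrial calls were 7 to 13 on day 3 and 6 to 7 on day 4, and nuclear calls 4 to 5 (higher, day 3), 4 to 20 (higher, day 4) and 2 to 5 (lower, day 4). Untreated cells gave 0 to 5 on day 4. The interaction gave 1 to 8 mitochondrial and 1 to 2 nuclear higher on day 3, and 5 to 9 mitochondrial, 1 to 2 nuclear higher and 7 to 14 lower on day 4. 4-OHT in FL/FL cells gave 0 to 6 mitochondrial on day 2, 9 to 10 with 2 to 4 nuclear higher and 1 to 5 lower on day 3, and 11 to 13 with 1 to 4 higher and 17 to 35 lower on day 4. From day 1 to day 4, nuclear members were higher and lower in 3 to 7 and 51 to 59 (untreated WT/FL), 4 to 5 and 57 to 64 (treated WT/FL), 5 to 9 and 41 to 52 (untreated FL/FL), and 6 to 8 and 52 to 61 (treated FL/FL), with 9 to 12 mitochondrial lower in the last. The genotype difference of mitochondrial minus nuclear mean log2 CPM was -0.029 to 0.183, -0.522 to -0.203, -1.26 to -0.843 and -1.02 to -0.796 on days 1 to 4. Groups of 2 libraries limit all tests, and *Cox6b2* and *Cox4i2* rest on few counts.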

Other observations

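Mitochondrial mRNA levels moved within days in all arms and not only over the whole time course. From day 3 to day 4, all 13 mitochondrial mRNAs had log2 changes above 0 in each arm. The medians were 0.63 in untreated WT/FL, 0.91 in untreated FL/FL, 0.52 in treated WT/FL and 0.61 in treated FL/FL cells. The rise in treated FL/FL cells started from a lower level, after a median log2 change of -1.0 from day 2 to day 3 there. In that step the median was -0.31 in treated WT/FL, -0.51 in untreated FL/FL and -0.25 in untreated WT/FL cells.

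The mitochondrial rRNAs took another course. *mt-Rnr1* went from 190 and 234 CPM on day 1 to 997 and 945 CPM on day 4 in treated FL/FL cells, and from 212 and 220 to 895 and 1060 CPM in treated WT/FL cells. Test results of the change over days are not given here for the rRNAs.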
